A study of Mus musculus with 9 samples.

Results

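The RNAs described here are 9 named long noncoding RNAs of brain, namely Malat1, Neat1, Miat, Snhg11, Gas5, Rmst, Pantr1, Peg13 and Dlx6os1. They were chosen by gene name from the table of read counts per gene, as brain long noncoding RNAs that lie outside the Ube3a and Dlk1-Dio3 imprinted domains. The 9 names take 10 of the 54532 rows of the table, because Dlx6os1 also names a second row of 146 bases with 0 counts in every library, which was not tested. All 9 remaining rows passed the filter on low counts and stand among 19782 genes tested, of which 2253 carry the annotation of a long noncoding RNA class.

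RNA-seq was performed on hippocampi of N4 Ube3am-/p+ mice, a model of Angelman syndrome that carries a mutated maternal copy of the ubiquitin ligase gene Ube3a and an intact paternal copy. The mice were given 0.5 nmol of Ant-134, a locked nucleic acid antimiR against the microRNA miR-134 (n = 5 mice), or a scrambled antimiR, Scr (n = 4 mice), by injection into the cerebral ventricle at postnatal day 21. Every mouse went through audiogenic seizure tests at days 22, 24 and 26, and the hippocampus on the side of the injection was taken at day 27 after saline perfusion, with 1 hippocampus of 1 mouse in each library. The question of the comparison was which transcripts differ after Ant-134 in mice that all carry the mutation and all went through the seizure tests. There was no wild-type, untreated or unstimulated group. The line came from a C57BL/6 colony that was crossed to 129Sv/Ev and backcrossed for 4 generations, both sexes were used with no record of their ratio for molecular work, and tissue at day 27 comes only from mice that lived to that day.

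Long noncoding RNAs act as RNA, without being read into protein, and many of them stay in the nucleus. Malat1 gathers in nuclear speckles, Neat1 is the RNA scaffold around which the bodies called paraspeckles form, and Miat, also known as Gomafu, is a nuclear RNA of neurons that binds splicing factors. Gas5 and Snhg11 carry small nucleolar RNAs in their introns, and Pantr1 and Dlx6os1 lie beside genes of neural development, Rmst is known from neural progenitors, and Peg13 lies within an imprinted domain. Malat1 and the long form of Neat1 end in a triple-stranded fold in place of a poly-A tail, and the libraries were made by poly-A selection. In whole tissue, fewer cells that express an RNA and less of it per cell cannot be told apart.

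The table gave 28583298 to 41978113 counts per library, and the 9 RNAs together took 0.511% to 0.639% of them. A count of 3, taken as the limit that a count of 0 allows, corresponded to 0.0715 to 0.105 CPM, the count scaled to a common library total. Summed levels of 8 principal neuron markers were 7808 to 9479 CPM in the Ant-134 group and 8129 to 9003 CPM in the Scr group. Summed choroid plexus markers, which come from the ventricle beside the hippocampus, ranged from 72.4 to 2574 CPM in the Ant-134 group and from 84.7 to 2025 CPM in the Scr group. The 8 microglial markers did not overlap between the groups, at 322 to 373 CPM with Ant-134 and 380 to 431 CPM with Scr, and Csf1r and C1qa were lower in the test below, with none of the 8 at 0. The part of these cell types in the results below was not tested, beyond the values given beside them.

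**Figure D1:**
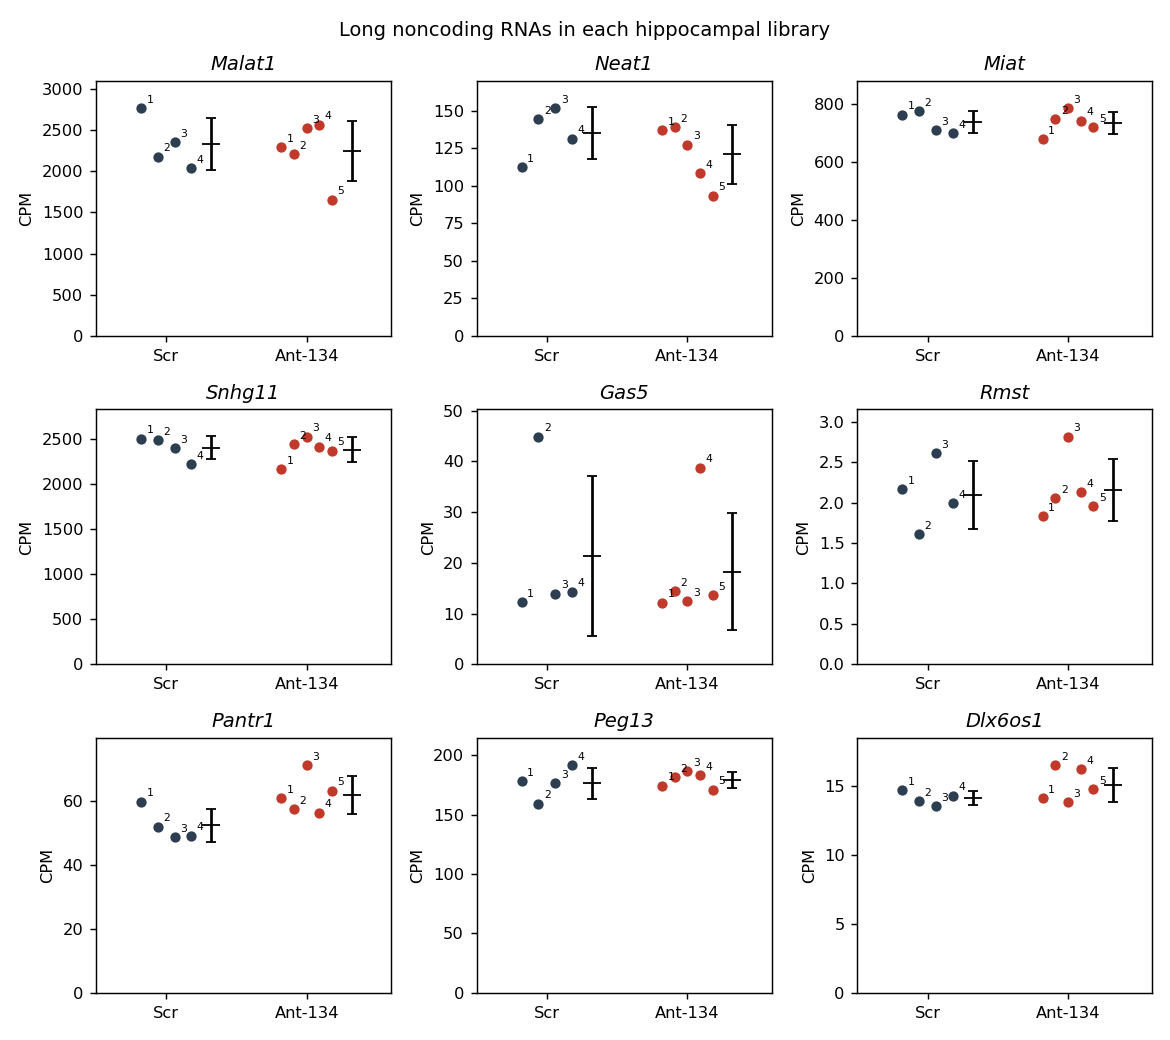
Level of each long noncoding RNA in each library, in CPM on axes that start at 0, with Scr mice in blue and Ant-134 mice in red, replicate numbers beside the points, and the mean ± SD beside each group. Gas5 stands at 44.8 CPM in Scr replicate 2 and 38.7 CPM in Ant-134 replicate 4 against 12.2 to 14.4 CPM elsewhere, and Pantr1 is the RNA whose groups lie furthest apart relative to their spread.

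The 9 RNAs differed widely in level. Levels were compared between genes only as the deposited FPKM (fragments per kilobase of gene, scaled to the library total), which allows for length, and as means over the 9 libraries. Malat1 was first at 324 FPKM, followed by Snhg11 at 278 FPKM, Miat at 78.5 FPKM, Peg13 at 37.3 FPKM and Pantr1 at 12.8 FPKM. Neat1 followed at 6.06 FPKM over its 20.771 kb, Gas5 at 5.17 FPKM, Dlx6os1 at 2.80 FPKM and Rmst at 0.284 FPKM. The length used for Neat1 is that of its long form, which has no poly-A tail, and the libraries were poly-A selected. Its FPKM and its place in this order may therefore be too low, and the share of each form was not tested. Malat1 (236 to 393 FPKM) and Snhg11 (252 to 293 FPKM) overlapped across libraries, and so did Neat1 (4.46 to 7.21 FPKM) and Gas5 (3.21 to 11.8 FPKM), whereas the other neighbours in this order did not overlap in any library. By this measure, "abundant" holds for the first 5 of them, which lay above at least 79.5% of the genes tested. Neat1 and Gas5 lay above 63.1% and 59.3%, Dlx6os1 above 46.1%, and Rmst above 11.2% only, with 59 to 89 counts per library.

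**Figure D2:**
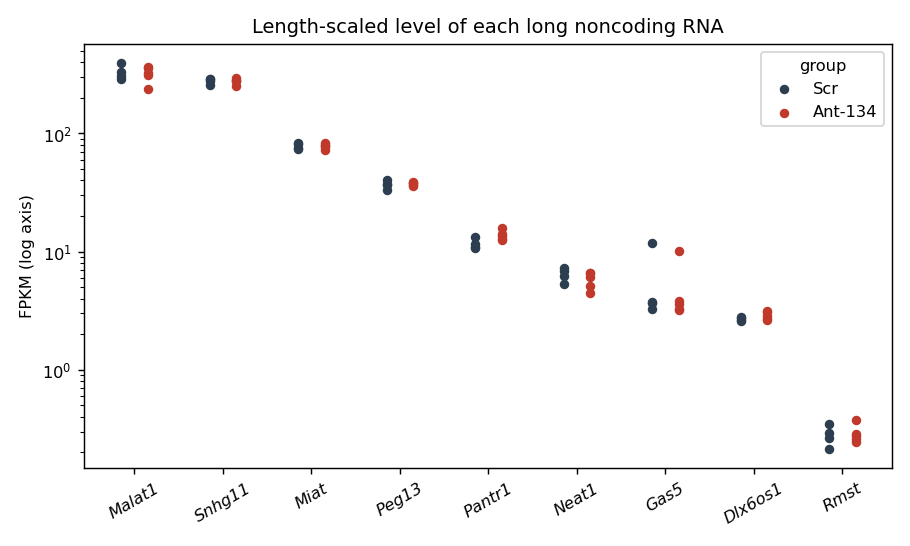
FPKM of each long noncoding RNA in each library on a log axis, ordered by the mean, with Scr mice in blue and Ant-134 mice in red. The means fall from 324 FPKM for Malat1 to 0.284 FPKM for Rmst, and the groups of each RNA overlap.

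Ant-134 was compared with Scr in edgeR's quasi-likelihood test over all genes, and a gene was called at an unadjusted p value below 0.05, the threshold of the study. Pantr1 was called, higher with Ant-134, and the other 8 RNAs were not. In all, 1 of 9 was called in this test, against 4.18% of all genes tested (1.49% higher and 2.69% lower with Ant-134) and 3.11% of the long noncoding RNA classes. Of the 9 RNAs, none had groups that did not overlap in CPM, against 1.54% of all genes. After Benjamini-Hochberg adjustment over all genes, 0% of genes passed in edgeR (0 of 19782, with 827 at an unadjusted p value below 0.05). DESeq2 passed 18 genes and 0 of the 9 RNAs, with no filter on counts beforehand but with its default filtering in the adjustment. Before adjustment DESeq2 called 2.74% of the genes and 1 of the 9 RNAs, Pantr1. The median log2 fold change of the 9 RNAs was -0.0042, with 4 of 9 above 0, beside 0.0026 over all genes and -0.012 over the long noncoding RNA classes.

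**Figure D3:**
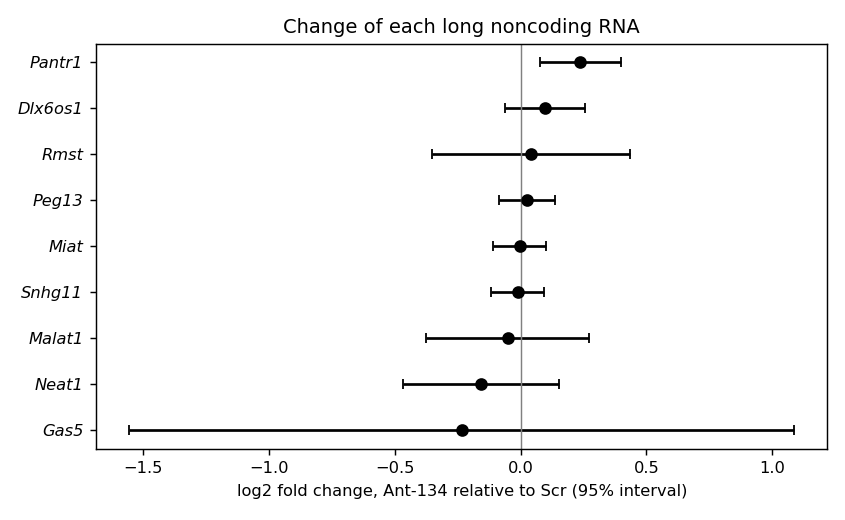
Log2 fold change of each long noncoding RNA, Ant-134 relative to Scr, from edgeR's quasi-likelihood test, with its 95% interval. The interval of Pantr1 (0.08 to 0.40) lies above 0, the other 8 include 0, and that of Gas5 is the widest (-1.56 to 1.09).

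Because the treatment acts on miR-134, its sequence and the matches to its seed are shown here. The seed is bases 2 to 8 of the microRNA, in capitals, from RefSeq on build GRCm38.p6, where the mature microRNA lies at chr12:109734145-109734166 on the plus strand.
mmu-miR-134-5p: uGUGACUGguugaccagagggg
The longest GENCODE M21 transcript of each RNA was searched on its own strand for CAGTCAC, which pairs with the seed, and for AGTCACA, which is shifted by 1 base and overlaps it by 6. A stretch that holds both, CAGTCACA, was counted once. Of the 9 RNAs, 5 held 7 matches in all, given from the transcript strand of GRCm38 with the match in capitals.
Malat1, chr19:5800119-5800143, minus strand: tttggttcaCAGTCACctcaggaga
Neat1, chr19:5834849-5834873, minus strand: cataactcaAGTCACAgccaccagg
Neat1, chr19:5826345-5826370, minus strand: gggttcctgCAGTCACAgatgagggt
Miat, chr5:112221365-112221389, minus strand: tgttgtgggAGTCACAggaaggagg
Snhg11, chr2:158381427-158381451, plus strand: atatgtaatCAGTCACctgggtggt
Dlx6os1, chr6:6823860-6823884, minus strand: gatcaatggAGTCACAgggtgatac
Dlx6os1, chr6:6821630-6821655, minus strand: tttttgagaCAGTCACAgataaccaa
No match was found in the longest transcripts of Gas5, Rmst, Pantr1 and Peg13. Both Neat1 matches lie in its long transcript, at bases 10615 and 19118, and 1 of its 4 annotated transcripts holds a match. For the others it is 1 of 4 for Malat1, 3 of 6 for Miat, 2 of 5 for Snhg11 and 2 of 3 for Dlx6os1. Among all genes tested with a transcript, 34.5% held at least 1 match, at 0.143 matches per kb, and among the long noncoding RNA classes 25.2% did, at 0.159 per kb. The 9 RNAs held 0.117 per kb. The 5 RNAs with a match had log2 fold changes from -0.16 (Neat1) to 0.10 (Dlx6os1), and none of the 5 was called. Pantr1, which was called, holds no match in any of its 12 annotated transcripts. A match is a description of these letters and not of binding.

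The nuclear RNAs Malat1, Neat1 and Miat were not called. Malat1 lies at chr19:5795690-5802672 (GRCm38, minus strand), and its longest transcript has 1 exon. Its level was 2294, 2210, 2520, 2567 and 1656 CPM in Ant-134 replicates 1 to 5 and 2764, 2177, 2349 and 2037 CPM in Scr replicates 1 to 4. The lowest value was Ant-134 replicate 5 and the highest Scr replicate 1, and the other 7 mice lay between them with the groups mixed. The means were 2249 ± 364 CPM (SD, n = 5) and 2332 ± 315 CPM (SD, n = 4), a log2 fold change of -0.05 ± 0.14 (SE, edgeR, unadjusted p = 0.722, two-sided exact permutation p = 0.746). Malat1 and Snhg11 have the same count, 70817, in Ant-134 replicate 3 and different counts in the other 8 libraries.

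Neat1 is a neighbour of Malat1 on the same strand, at chr19:5824708-5845478. Its level was 137, 139, 127, 108 and 93.2 CPM in Ant-134 replicates 1 to 5. In Scr replicates 1 to 4 it was 112, 144, 151 and 131 CPM. Replicates 4 and 5 of Ant-134 and replicate 1 of Scr were the 3 lowest, so the groups overlapped. In edgeR Neat1 differed by -0.16 ± 0.14 on the log2 scale (SE, unadjusted p = 0.280, two-sided exact permutation p = 0.317), with a 95% interval of -0.47 to 0.15. When each mouse was left out it ran from -0.24, without Scr replicate 1, to -0.08, without Ant-134 replicate 5, and was not called in any of them. In that replicate Malat1, Neat1, Frmd8 (a protein-coding neighbour 4.224 kb from Neat1, 25.4 CPM against 31.5 to 39.0 CPM in the other mice) and the sum of 8 oligodendrocyte markers (7502 CPM against 8867 to 12637 CPM) were each at their lowest of the 9 libraries. So were the sums of the principal neuron markers (7808 CPM) and the microglial markers (322 CPM), while the interneuron markers were at their highest (1372 CPM). The same library had the highest share of counts on mitochondrial genes, 4.01%. The part of these values in the levels of Malat1 and Neat1 was not tested.

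Counts of Neat1 and Malat1 were also set against each other within each library, as a log2 ratio that does not depend on library scaling. The ratio of Neat1 to Malat1 was -4.22 ± 0.23 (SD, n = 5) with Ant-134 and -4.11 ± 0.34 (SD, n = 4) with Scr (two-sided exact permutation test, p = 0.563). The difference of -0.10 was -0.27 without Scr replicate 1 (exact permutation p = 0.0714) and -0.02 without Ant-134 replicate 4. Scr replicate 1 stood at -4.62, against -3.96 to -3.91 in the other 3 Scr mice. Of the proteins that build paraspeckles, 9 of 9 listed were tested and 0 were called in edgeR or in DESeq2. They include Nono at 142 ± 4.88 CPM (SD, n = 5) and 139 ± 1.66 CPM (SD, n = 4), and Sfpq at 188 ± 8.32 CPM and 183 ± 6.49 CPM.

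Miat, at chr5:112213228-112229395 on the minus strand, varied least between mice. It stood at 679, 748, 786, 744 and 721 CPM in Ant-134 replicates 1 to 5. The 4 Scr replicates gave 765, 776, 710 and 700 CPM. The highest level was 1.16 times the lowest, and the mice of both groups were mixed throughout. The difference was -0.0042 ± 0.05 on the log2 scale (SE, edgeR, unadjusted p = 0.933, two-sided exact permutation p = 0.937), with a 95% interval of -0.11 to 0.10. The log2 ratio of Miat to Malat1 was -1.60 ± 0.24 (SD, n = 5) with Ant-134 and -1.65 ± 0.17 (SD, n = 4) with Scr (two-sided exact permutation test, p = 0.746).

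Among the hosts of small nucleolar RNAs, Snhg11 had a highest level 1.16 times its lowest. Of the 500 tested genes nearest to it in level, 62.4% had a smaller spread within groups. The gene lies at chr2:158375638-158386145 on the plus strand, overlaps 2 annotated snoRNAs and is typed as protein-coding in the table. Its level was 2164, 2439, 2520, 2409 and 2366 CPM in Ant-134 replicates 1 to 5 and 2500, 2485, 2397 and 2218 CPM in Scr replicates 1 to 4. The lowest were Ant-134 replicate 1 and Scr replicate 4, and the groups overlapped. Snhg11 differed by -0.01 ± 0.05 on the log2 scale (SE, edgeR, unadjusted p = 0.810, two-sided exact permutation p = 0.778). Snhg11 and Miat moved together across mice, with a Pearson r of 0.93 over 9 libraries in log2 CPM after the group means were subtracted, the highest among the 36 pairs of these RNAs. The other pairs ran from -0.45 to 0.59. These are descriptions over 9 libraries that share their scaling.

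Gas5, a host of several C/D-box snoRNAs whose transcript is known to accumulate in cells that stop growing, separated 2 mice from the other 7. The gene lies at chr1:161034422-161038539 on the plus strand and overlaps 10 annotated snoRNAs and, on the opposite strand, the protein-coding gene Zbtb37. Its level was 12.2, 14.4, 12.5, 38.7 and 13.7 CPM in Ant-134 replicates 1 to 5 and 12.3, 44.8, 13.9 and 14.4 CPM in Scr replicates 1 to 4. Ant-134 replicate 4 and Scr replicate 2, 1 mouse of each group, stood apart, and the highest level was 3.69 times the lowest. The log2 fold change between the groups was -0.23 ± 0.56 (SE, edgeR, unadjusted p = 0.689, two-sided exact permutation p = 0.548). It was 0.43 without Scr replicate 2, -0.71 without Ant-134 replicate 4 and -0.04 without both, none of them called.

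The split of Gas5 was set against its neighbours and the other snoRNA hosts. The level of Zbtb37 was 26.2 CPM in Ant-134 replicate 4 and 17.9 to 20.7 CPM in the other 8 libraries, among them Scr replicate 2 at 19.8 CPM. Whether reads from the 2 strands were counted apart is not given in the sources used here. The log2 ratio of Gas5 to the sum of the other snoRNA hosts was -7.56, -7.48, -7.75, -6.03 and -7.52 in Ant-134 replicates 1 to 5 and -7.75, -5.88, -7.51 and -7.36 in Scr replicates 1 to 4 (two-sided exact permutation test between the groups, p = 0.603). The same 2 mice had the highest ratio of their group. Snhg11 makes up 94.0% to 95.4% of that sum. With Snhg11 left out, a choice made after the data were seen, the ratio was -1.60 in Ant-134 replicate 4 and -1.79 in Scr replicate 2, against -3.68 to -3.20 in the other 7 mice. Snhg5, Snhg8, Snhg12, Snhg20, Zfas1 and Epb41l4aos were each at their lowest of the 9 libraries in Ant-134 replicate 4. The other tested hosts were not. Snhg8 was at 11.1 CPM and Snhg12 at 11.5 CPM there, against 17.9 and 18.1 CPM in Scr replicate 2. The part of these levels in the ratio was not tested. Of 17 listed hosts, 16 were in the table and 14 were tested, and 0 were called in edgeR or in DESeq2. Snhg6, named after its values were seen, was high in 3 mice, of which 1 is also high for Gas5. Its level was 13.7 CPM in Ant-134 replicate 3, 12.03 CPM in Scr replicate 1 and 13.5 CPM in Scr replicate 2, the mouse with high Gas5, against 7.16 to 8.85 CPM elsewhere. Its log2 fold change of -0.32 was not called in edgeR, and without Ant-134 replicate 3 it was -0.54 and called. Among the other hosts, Snhg18 was called without Scr replicate 3 (-0.60) and Snhg12 without both mice with high Gas5 (0.28).

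Genes whose levels follow Gas5 across the 9 libraries were listed by their Pearson r in log2 CPM after the group means were subtracted. The 2 most like it were Gm17709 (r = 0.97) and Smc5 (r = 0.96). Among the 50 most like it of 16026 genes, a number chosen after the values were seen, 13 (26%) lie on chromosome 1, the chromosome of Gas5, which holds 968 (6.04%) of the genes. In 45 of the 50, both of the mice with high Gas5 had the 2 highest levels of their gene. The 50 were picked for following Gas5, whose spread rests on these 2 mice. That count therefore follows from the choice and is not a separate result. Copa, a coat protein of Golgi vesicles that lies 11.05 Mb from Gas5, had 198 CPM in Ant-134 replicate 4 and 190 CPM in Scr replicate 2, against 161 to 172 CPM elsewhere. Myoc, 1.605 Mb from Gas5, had 2.72 and 3.43 CPM in those mice against 0.66 to 1.26 CPM elsewhere. The 13 genes lie from 124 Mb before Gas5 to 24.4 Mb after it, and 8 of them lie at higher coordinates than Gas5. These 9 points rest on 2 mice, and the share is a description with no test.

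**Figure D4:**
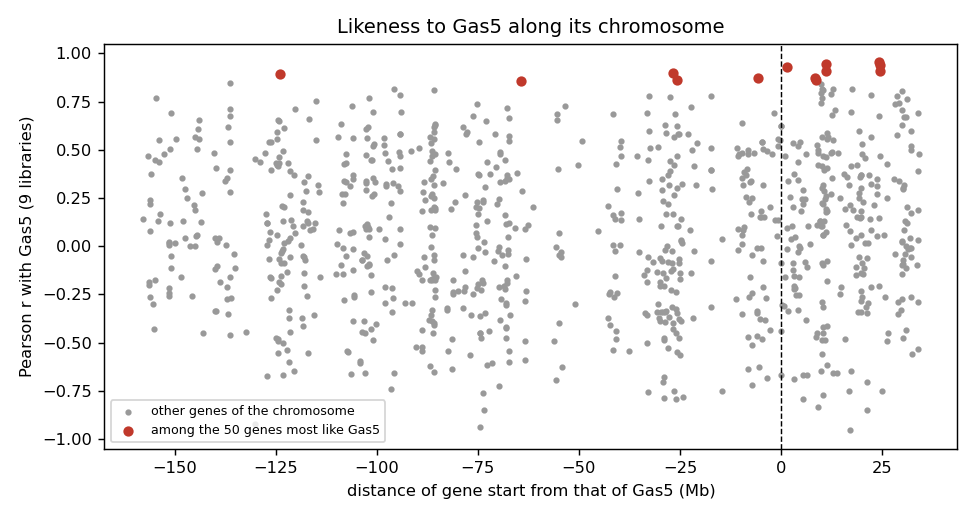
Pearson r with Gas5 over 9 libraries, after group means were subtracted, for each gene of chromosome 1 with a mean of at least 1 CPM, against its distance from Gas5 in Mb. The 13 genes in red are those among the 50 most like Gas5, and they lie between -124 and 24.4 Mb.

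Gas5 belongs to the genes that open their transcripts with a pyrimidine tract, a feature of mRNAs for the translation machinery. Start sites were read from the RefSeq table (GRCm38.p6), 10 bases before to 20 from the start, and a start was counted where its first base is C and at least 4 pyrimidines (C or T) open the transcript. The opening pyrimidines are in capitals, and the set shows both starts listed for Gas5 and those of the other RNAs and hosts that met the rule, with Snhg11 for comparison.
Gas5, first start, chr1:161034591-161034620, plus strand: gcgggcccgcgagctcgacagcccggagcc
Gas5, second start, chr1:161035156-161035185, plus strand: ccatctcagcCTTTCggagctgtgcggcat
Snhg7, chr2:26640225-26640254, minus strand: gatgctcggcCTCTCggcagccatggcggc
Snhg8, chr3:123508317-123508346, minus strand: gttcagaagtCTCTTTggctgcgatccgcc
Miat, chr5:112228929-112228958, minus strand: tcgcagtagcCCCTTTgtgaggcgcgggag
Snhg11, chr2:158375703-158375732, plus strand: tgcggcactcactcacgcactcagcctgct
The rule held for 4 of 20 starts of these RNAs and hosts, with 5 of the 9 RNAs and 14 of the 17 hosts in the table, and for 3.76% of all 32851 starts. Snhg8, which shares the tract, stood at 15.9 ± 2.89 CPM (SD, n = 5) with Ant-134 and 16.2 ± 1.70 CPM (SD, n = 4) with Scr, and was not called.

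Pantr1 was higher with Ant-134. It lies at chr1:42590782-42694842 on the minus strand, 0.926 kb from Pou3f3, which encodes a POU-domain transcription factor of neural development. Its level was 60.8, 57.4, 71.1, 56.4 and 63.1 CPM in Ant-134 replicates 1 to 5 and 59.7, 52.0, 48.7 and 49.1 CPM in Scr replicates 1 to 4. Scr replicate 1 lay above Ant-134 replicates 2 and 4, so the groups overlapped, and 3 of the 5 Ant-134 mice lay above all Scr mice. The means were 61.8 ± 5.90 CPM (SD, n = 5) and 52.4 ± 5.11 CPM (SD, n = 4), a log2 fold change of 0.24 ± 0.08 (SE) with an unadjusted p of 0.00738 in edgeR's quasi-likelihood test and p = 0.0397 in the two-sided exact permutation test over all splits of the mice into 5 and 4, where 0.00794 is the smallest p the exact test can give. It failed Benjamini-Hochberg adjustment over all genes in edgeR (adjusted p = 0.998, and 0.416 to 1.00 over the alternatives tried). Summed microglial markers, given above, also differed between the groups. All 8 principal neuron markers and 7 of 8 thalamus markers had log2 fold changes above 0. In each of these lists 1 was called higher, against 1.49% of all genes tested. Fold changes were above 0 for 11 of 12 interneuron markers and 0 of 6 endothelial markers, with 0 called. The sums of these 4 lists overlapped between the groups. Without Ant-134 replicate 3, the mouse with the highest Pantr1, the log2 fold change of Pantr1 was 0.18 and still called. That library also had the highest sums of thalamus (193 CPM against 113 to 141 CPM), erythrocyte (403 CPM against 44.0 to 116 CPM), cortical (222 CPM against 170 to 208 CPM) and principal neuron markers (9479 CPM against 7808 to 9251 CPM). The part of these markers in the level of Pantr1 was not tested.

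Pou3f3 itself was not called, at 147 ± 5.21 CPM (SD, n = 5) with Ant-134 and 143 ± 14.9 CPM (SD, n = 4) with Scr (log2 fold change 0.04, edgeR adjusted p = 0.998). The log2 ratio of Pantr1 to Pou3f3 was -1.27, -1.33, -1.10, -1.43 and -1.15 in Ant-134 replicates 1 to 5. In Scr replicates 1 to 4 it was -1.45, -1.48, -1.41 and -1.46. Ant-134 replicate 4 fell among the Scr mice and the other 4 lay above them. The groups differed by 0.20 (two-sided exact permutation test, p = 0.0317, and 0.222 after adjustment over the 7 ratios compared). Pantr2, the long noncoding RNA on the other side of Pou3f3, stood at 4.41 ± 0.68 CPM (SD, n = 5) and 4.19 ± 0.76 CPM (SD, n = 4) and was not called. The gene most like Pantr1 across the 9 libraries was Fam107a, an actin-binding stress-response gene, with r = 0.99 and a log2 fold change of 0.15 that was not called.

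**Figure D5:**
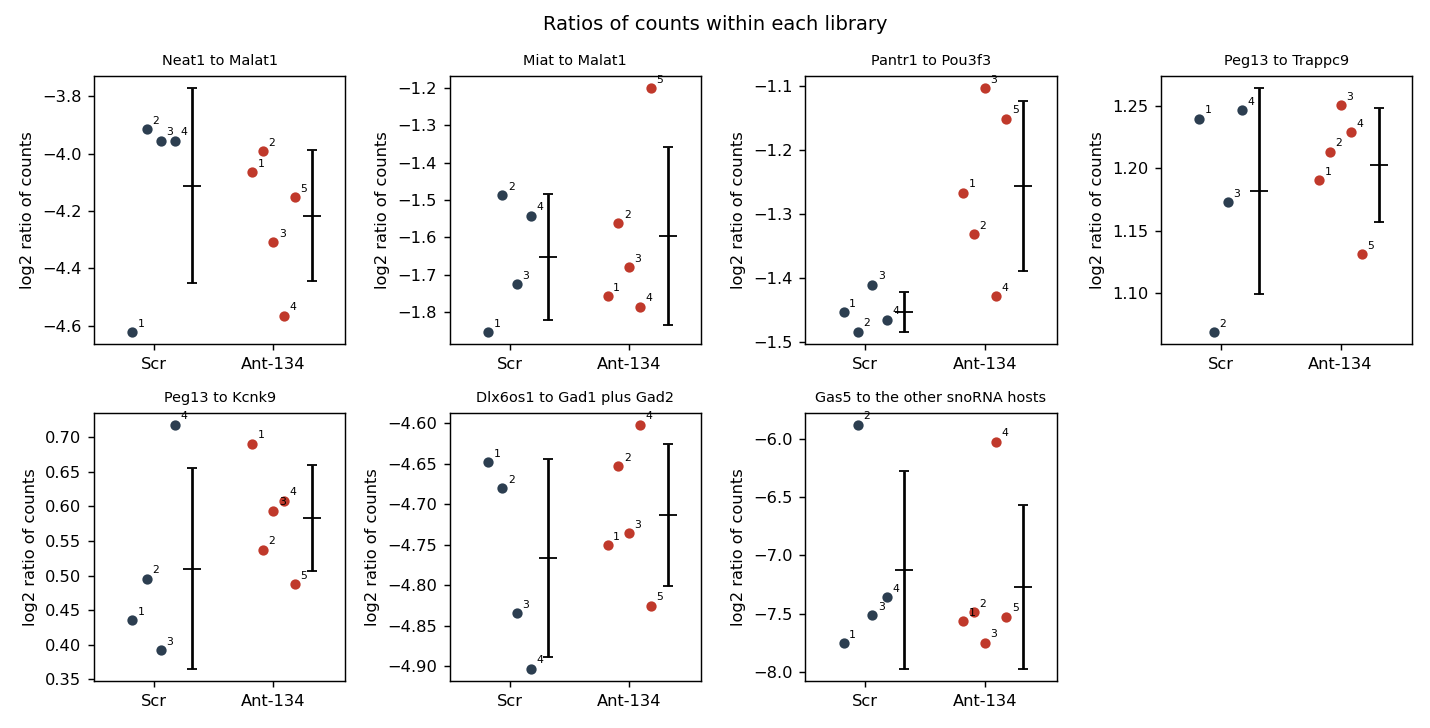
Log2 ratio of counts within each library for the 7 ratios compared, with Scr mice in blue, Ant-134 mice in red, replicate numbers beside the points and the mean ± SD beside each group. The axes do not start at 0. The ratio of Pantr1 to Pou3f3 has 4 of 5 Ant-134 mice above all Scr mice, and the ratio of Gas5 to the other snoRNA hosts has 1 high mouse in each group.

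Dlx6os1, also known as Evf2, is an antisense RNA of the Dlx5 and Dlx6 locus, whose homeobox genes direct the development of inhibitory interneurons. It spans chr6:6820189-6871592 on the minus strand and overlaps Dlx6 on the opposite strand. Its level was 14.1, 16.5, 13.8, 16.2 and 14.8 CPM in Ant-134 replicates 1 to 5 and 14.7, 13.9, 13.6 and 14.3 CPM in Scr replicates 1 to 4. Ant-134 replicates 2, 4 and 5 lay above all Scr mice and the other 2 lay among them. Dlx6os1 differed by 0.10 ± 0.08 on the log2 scale (SE, edgeR, unadjusted p = 0.217, two-sided exact permutation p = 0.222), with a 95% interval of -0.06 to 0.26. Dlx5 stood at 4.65 ± 0.69 CPM (SD, n = 5) and 4.46 ± 0.54 CPM (SD, n = 4) and Dlx6 at 3.19 ± 0.65 CPM and 3.33 ± 0.32 CPM, and neither was called. When each mouse was left out it ran from 0.06, without Ant-134 replicate 2, to 0.13, and was not called in any of them. Relative to Gad1 plus Gad2, which encode the GABA-synthesising enzymes of interneurons, Dlx6os1 differed by 0.05 on the log2 scale (two-sided exact permutation test, p = 0.460), and by 0.0077 without Scr replicate 4 and 0.09 without Scr replicate 1. The 12 interneuron markers summed to 1162 to 1372 CPM with Ant-134 and 1184 to 1347 CPM with Scr, and 0 of 12 were called in edgeR or in DESeq2.

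Rmst, known as a partner of the transcription factor Sox2, was the lowest of the 9, at 59 to 89 counts per library. The gene spans chr10:92071037-92165170 on the minus strand and holds the microRNA genes Mir135a-2 and Mir1251. Its level was 1.83, 2.05, 2.81, 2.13 and 1.95 CPM in Ant-134 replicates 1 to 5 and 2.16, 1.61, 2.61 and 1.99 CPM in Scr replicates 1 to 4. The highest mouse of each group was replicate 3, and the groups overlapped. Its difference was 0.04 ± 0.18 on the log2 scale (SE, edgeR, unadjusted p = 0.820, two-sided exact permutation p = 0.802), and its 95% interval of -0.35 to 0.44 covers changes of either sign. Counting error and the spread of mice were not separated for it.

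Peg13, an RNA expressed from the paternal copy in brain, lies at chr15:72805600-72810324 within an intron of Trappc9, and both are transcribed from the minus strand. Its level was 174, 182, 187, 183 and 171 CPM in Ant-134 replicates 1 to 5 and 178, 159, 176 and 192 CPM in Scr replicates 1 to 4. Scr mice gave both the lowest and the highest value, and all Ant-134 mice lay between them. Peg13 differed by 0.02 ± 0.05 on the log2 scale (SE, edgeR, unadjusted p = 0.638, two-sided exact permutation p = 0.675). Trappc9 stood at 77.9 ± 0.87 CPM (SD, n = 5) and 77.6 ± 2.44 CPM (SD, n = 4), and Kcnk9, a potassium channel gene of the same imprinted domain, at 120 ± 6.89 CPM and 124 ± 10.8 CPM. The log2 ratio of Peg13 to Trappc9 differed by 0.02 (two-sided exact permutation test, p = 0.651) and that to Kcnk9 by 0.07 (two-sided exact permutation test, p = 0.357). The difference in the ratio to Kcnk9 was 0.14 without Scr replicate 4 (exact permutation p = 0.0536) and 0.03 without Scr replicate 3. Of 18 listed neighbours of these RNAs, 17 were tested and 0 were called in edgeR, and DESeq2 called 1, Crybb1, lower (log2 fold change -0.50 and adjusted p = 0.998 in edgeR).

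In a wider list of brain and snoRNA-host long noncoding RNAs, Mir99ahg and Lncpint were lower with Ant-134. Of 53 names, 48 were in the table and 40 were tested, with 0 higher and 2 lower in edgeR, beside 1.49% higher and 2.69% lower over all genes tested, and a median log2 fold change of -0.014. Mir99ahg, the host of the miR-99a cluster, fell from 7.66 ± 0.85 CPM (SD, n = 4) with Scr to 6.16 ± 0.84 CPM (SD, n = 5) with Ant-134 (log2 fold change -0.31, edgeR unadjusted p = 0.0210, adjusted p = 0.998). Lncpint, a p53-regulated RNA, fell from 3.56 ± 0.62 CPM (SD, n = 4) to 2.78 ± 0.40 CPM (SD, n = 5) (log2 fold change -0.36, edgeR unadjusted p = 0.0396, adjusted p = 0.998). The call of Mir99ahg held under 17 of the 21 alternatives and was lost in limma at both pseudocounts, without Ant-134 replicate 1 and without Scr replicate 3. That of Lncpint held under 11 of 21, and was lost in limma, with the replicate block, without Ant-134 replicate 2, 3 or 5 or Scr replicate 1, 2 or 3, and without both mice with high Gas5. DESeq2 called 4 of the 48 with a p value, against 2.74% of all genes in that test, and these were Mir99ahg and Lncpint with Dancr and Tunar, which were higher. The most abundant RNAs of the list were not called in the main edgeR fit, among them 1700020I14Rik at 419 CPM with Ant-134 and 397 CPM with Scr, Mir124a-1hg at 258 and 254 CPM, and Firre at 101 CPM in both. The replicate block called 1700020I14Rik, at a log2 fold change of 0.13, as did the fit without Ant-134 replicate 5.

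The genes most like the other RNAs, by the same measure over 9 libraries, were Fancg and Dusp16 for Malat1 (r = 0.98 for both) and Bmf and Serhl for Neat1 (r = 0.96 and 0.95). For Miat they were Adk and Ggta1 (r = 0.96 and 0.95), and for Snhg11 Gm5089 and 4833420G17Rik (r = 0.97 for both). Rmst had Daglb and Gm20342 (r = 0.97 for both), Peg13 had Pgr and Scn1a (r = 0.97 and 0.96), and Dlx6os1 had Smc2 and Lrrk1 (r = 0.99 and 0.97). After Fam107a, Gm20743 was next for Pantr1 (r = 0.98). With 9 libraries and 16026 genes, values of this size are a description, and nothing about shared function follows from them.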

How the data were processed

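Poly-A selected libraries were sequenced by the study, mapped to GRCm38 (mm10) with HISAT2 2.0.5 and counted per gene with featureCounts 1.5.0-p3, and CASAVA 1.8 is named in the submitters' processing notes. The strand setting is not given in the sources used here, so reads of overlapping genes may not be told apart. The authors deposited raw counts and FPKM. In each library the deposited FPKM were the counts scaled by gene length and 1 constant.

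Counts were filtered with filterByExpr (minimum count 10), scaled by TMM and tested in edgeR 4.0.16 (R 4.3.3) by the robust quasi-likelihood test with no covariate, with Benjamini-Hochberg adjustment over 19782 genes, where the study used DESeq2. The SE came from the F statistic. The test was run on simulated counts first. Floors and intervals cover counting error or the spread of mice only, since PCR duplicates are counted. Within each group every pair of libraries differed by more than counting noise (chi-square per gene 8.30 to 21.1). DESeq2 1.42.0, limma 3.58.1 on FPKM (log2, pseudocounts 1 and 0.1, genes with a mean of at least 0.1 FPKM), other scalings and filters, a replicate block and the removal of each library were the alternatives. The members and gene lists were chosen with earlier results of these data known. Genes named were the 9 RNAs, listed genes with p below 0.05 (up to 6 a list), the 2 genes most like each RNA and the genes in the ratios. Frmd8, Zbtb37, Snhg5, Snhg6, Snhg8, Snhg12, Snhg18, Snhg20, Zfas1, Epb41l4aos, Pantr2, Dlx5, Dlx6, Nono, Sfpq, Crybb1, Dancr, Tunar, Copa, Myoc, 1700020I14Rik, Mir124a-1hg, Firre and the microglial genes were named outside this rule, after their values were seen. Some genes of the marker lists are not reported by name here.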

Additional observations from a re-analysis of the deposited data

Results flagged for a closer look

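Of 34 groups of values checked for 1 sample that stands apart, 4 held one, where chance gives about 5% of groups. Gas5 was at 38.7 CPM in Ant-134 replicate 4, against 12.2 to 14.4 CPM in the other 4 Ant-134 mice. It was at 44.8 CPM in Scr replicate 2, against 12.3 to 14.4 CPM in the other 3 Scr mice. The log2 ratio of Gas5 to the other snoRNA hosts was -6.03 in Ant-134 replicate 4, against -7.75 to -7.48. The log2 ratio of Neat1 to Malat1 was -4.62 in Scr replicate 1, against -3.96 to -3.91.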

How the results depend on the processing

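Pantr1 was higher and called under all 21 alternatives, with log2 fold changes of 0.18 to 0.30 and unadjusted p values of 0.000934 to 0.0276 in edgeR, DESeq2 or limma. It was the only one of the 9 RNAs called under each. Its log2 ratio to Pou3f3 ranged from 0.16 to 0.24 when each mouse was left out, and the exact permutation p rose above 0.05 in 8 of 9 of these, which have fewer mice. The count of called wider RNAs, 2, was 4 with DESeq2, with no filter and with the replicate block, 1 with limma at either pseudocount, 5 without both libraries with high Gas5 (an alternative chosen after the data were seen), and 1 to 5 when each library was left out. Removing Ant-134 replicate 1 or Scr replicate 3 gave 1, removing Ant-134 replicate 3 gave 5 and removing Ant-134 replicate 4 gave 4. The cause was not tested. Of the RNAs that were not called, several changed sign. With the replicate block Malat1 was 0.047 and Miat 0.0024, and Miat was 0.00057 with DESeq2. When each library was left out, the log2 fold changes ran from -0.11 to 0.040 for Malat1, -0.030 to 0.023 for Miat, -0.048 to 0.020 for Snhg11, -0.71 to 0.43 for Gas5, -0.069 to 0.17 for Rmst and -0.021 to 0.068 for Peg13. The differences of log2 ratios ran from -0.045 to 0.11 for Miat to Malat1, -0.017 to 0.043 for Peg13 to Trappc9 and -0.45 to 0.27 for Gas5 to the other hosts (-0.11 with Snhg11 left out of them). Without both libraries with high Gas5, Miat was 0.017, Rmst -0.066 and Peg13 -0.029. The order of levels held on RPKM from TMM-scaled counts. Equal replicate numbers did not pair the mice (correlations -0.21 to 0.08), and the block, in which Ant-134 replicate 5 has no partner, changed no call of the 9 RNAs. Groups of 5 and 4 mice limit all of these comparisons, and Rmst rests on the fewest counts.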
